A study of Mus musculus with 16 samples.

Results

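Ribosome loading was described for cells labelled Lck-/- in a study of mouse OT-1 T cells, from the 8 arrays of the 4 Lck-/- extracts among the 16 arrays and 8 extracts of the series. An array entered when its title named OT-1 Lck-/-. The receptor of OT-1 cells, made from a transgene, recognises the ovalbumin peptide SIINFEKL. All cells were lymph node T lymphocytes heterozygous for OT-1 on a Rag-/- background, either WT (4 extracts, the control) or Lck-/- (4 extracts). The labels do not say what OFF, a word the series title adds to Lck-/-, means or how the Lck gene is changed. Both genotypes received the peptide at 100 nM for 24 h and cycloheximide, which holds ribosomes on mRNA, at 100 µg/ml for 10 min. Lysates cleared of nuclei were separated on a gradient of sucrose steps from 10% to 50%, and fractions 1 to 5 (sub-polysomal) and 6 to 10 (polysomal) were pooled. Equal volumes of 1.5 µl of each pool were labelled, so equal mass was not set. The series' design text calls the extracts biological replicates without naming separate animals or cultures, so a p-value measures only the spread between these samples.

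An mRNA that is being translated carries several ribosomes and sediments deep in the gradient. Free mRNPs, mRNAs with few ribosomes and untranslated RNAs mostly stay near the top. Long coding sequences have room for more ribosomes than short ones, so the pools separate mRNAs by size as well as by initiation. Ribosomal protein mRNAs are known for a run of pyrimidines at their 5′ end (the TOP motif), through which mTOR controls their loading. Messages made inside mitochondria are translated there by mitochondrial ribosomes.

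Every extract was hybridised on 2 arrays, each with both of its pools, the dyes being swapped between them. The measure is the log2 ratio of polysomal over sub-polysomal signal after loess normalization. Its 0 is the typical spot of similar brightness on that array, called the typical mRNA below. A value of 1 is a 2-fold excess relative to it. Median centring, an alternative given below, sets the 0 of an array without regard to brightness, so bright lists can shift between these scalings. Of 22339 genes with a probe, 8805 had one whose signal cleared the background of both channels on 6 or more of the 8 Lck-/- arrays. Between 14619 and 50776 probes per array were well above background for polysomal RNA, and between 13149 and 30976 for sub-polysomal RNA. The value of 50776 belongs to the Cy5 array of replicate 1, and the next highest was 26324. Over genes, that array correlated with the other 7 at 0.50 to 0.63, against 0.65 to 0.93 among those 7. The counts of all genes above and below 0 are therefore given below with and without replicate 1. All 9 T cell markers entered, from Cd3e to Cd8a. Of the 6 B cell markers 1 entered (Cd79b). Of 6 myeloid markers 2 entered (Csf1r and Itgam), of 4 NK cell markers 2 (Eomes and Klra8), of 4 erythroid markers 1 (Hba-a1), and no marker of dendritic cells or of stroma and endothelium (5 each). Cd4 and Zbtb7b, markers of CD4 T cells, both entered. What part such RNAs have in the ratios was not tested.

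Lck is a Src-family kinase that phosphorylates the T cell receptor complex when antigen binds. Its log2 intensity over both pools was 14.18, 14.36, 14.04 and 14.14 in the 4 Lck-/- extracts and 15.08, 15.16, 14.72 and 15.17 in the WT extracts, so the groups did not overlap. The probe stood well above background on all 8 Lck-/- arrays, and whether it lies in the altered part of the gene is not known (mm9, chromosome 4, 129225614 to 129225673, minus strand). The polysomal over sub-polysomal ratio of Lck in Lck-/- cells was 0.16, 0.55, 0.14 and 0.09, a mean of 0.24 ± 0.21 (SD, n = 4). It did not pass the test against 0 (limma adjusted p = 0.124).

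The overall level of the ratio can be read only without normalization. Before normalization the median log2 ratio over the 8805 genes was 0.23, 0.41, 0.80 and 0.70 in the 4 extracts, a mean of 0.53 ± 0.26 (SD, n = 4). The dyes moved it more than the extracts did. Arrays with polysomal RNA in Cy5 gave 0.90 to 2.13 (mean 1.67) and arrays with it in Cy3 gave -0.85 to -0.45 (mean -0.58), so even the sign rests on averaging both dyes. After normalization the median is near 0 by construction (-0.01).

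Around that typical mRNA, ratios spread widely. The lower and upper quartiles lay at -0.34 and 0.32, and 9 genes in 10 lay between -0.85 and 0.84. The lower tail reached -5.03 and the upper only 2.15. A moderated limma test of the 4 extracts against 0 called 2049 genes above 0 (23.3% of 8805) and 2208 below (25.1%), at an adjusted p of 0.05. With a 2-fold minimum as well, 228 were above (2.59%) and 283 below (3.21%). Without replicate 1 the counts were 2750 above and 2220 below, and 396 and 328 with the 2-fold minimum. Leaving out replicate 3 left 1297 above and 1431 below. Between extracts, a gene had a median SD of 0.24, and replicates 3 and 4 correlated at 0.94 over genes against 0.69 to 0.82 for the other pairs.

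The highest ratio belonged to Srsf3, an SR protein that guides splicing, with 1.75, 2.48, 2.18 and 2.19 (mean 2.15, SE 0.13, limma adjusted p = 3.9e-05), 4.45-fold above the typical mRNA. Pa2g4, a growth-regulated ribosome-associated protein, had 1.57, 2.33, 2.13 and 2.30 (mean 2.08, SE 0.14, adjusted p = 7.59e-05). Ncl encodes nucleolin, which acts in rRNA synthesis and processing, and had 1.24, 2.26, 2.36 and 2.13. In all 3 genes replicate 1 was the lowest extract. All 8 arrays lay on the same side of 0 for each of the 30 genes at the ends, since the rule for naming them required it. For Srsf3 the mean was 1.91 on the Cy5 arrays and 2.39 on the Cy3 arrays.

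Next came Psmd14 (1.94), the deubiquitinase of the proteasome lid, and G3bp2 (1.83), an RNA-binding protein of stress granules. Atp13a3 (1.80) encodes a membrane transport ATPase, Ago2 (1.78) the slicing Argonaute of RNA interference, and Mdn1 (1.76) a giant ATPase of large-subunit assembly. Myh9 (1.73), the heavy chain of non-muscle myosin, and Ywhaz (1.71), a 14-3-3 protein, followed. The La-related RNA-binding proteins Larp4b (1.71) and Larp1 (1.68) were both present, and Larp1 is known to bind TOP mRNAs. Rtn3 (1.69), a reticulon that shapes the endoplasmic reticulum, Frg1 (1.66) and Cct8 (1.66), a subunit of the chaperonin TRiC, closed the 15 highest. Mdn1 varied most among the 15, from 0.40 in replicate 1 to 2.44 in replicate 2. Replicate 1 was the lowest extract for 14 of these 15 genes, the exception being Ywhaz. Other probes of the highest genes often gave lower values. Those of Srsf3 gave 0.49 and -0.03 beside 2.15, one of G3bp2 about as bright as the probe used gave 0.42 beside 1.83, and those of Ywhaz gave 0.86 and -0.05 beside 1.71. Dimmer probes gave 0.12 for Pa2g4, 0.70 for Mdn1 and 1.02 for Ncl, and a second probe of Larp1 gave 1.53. Of 4 probes for Ago2, 3 gave 1.74 to 1.86 and 1 gave -3.07. These probes were looked up after their genes had been named.

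**Figure D1:**
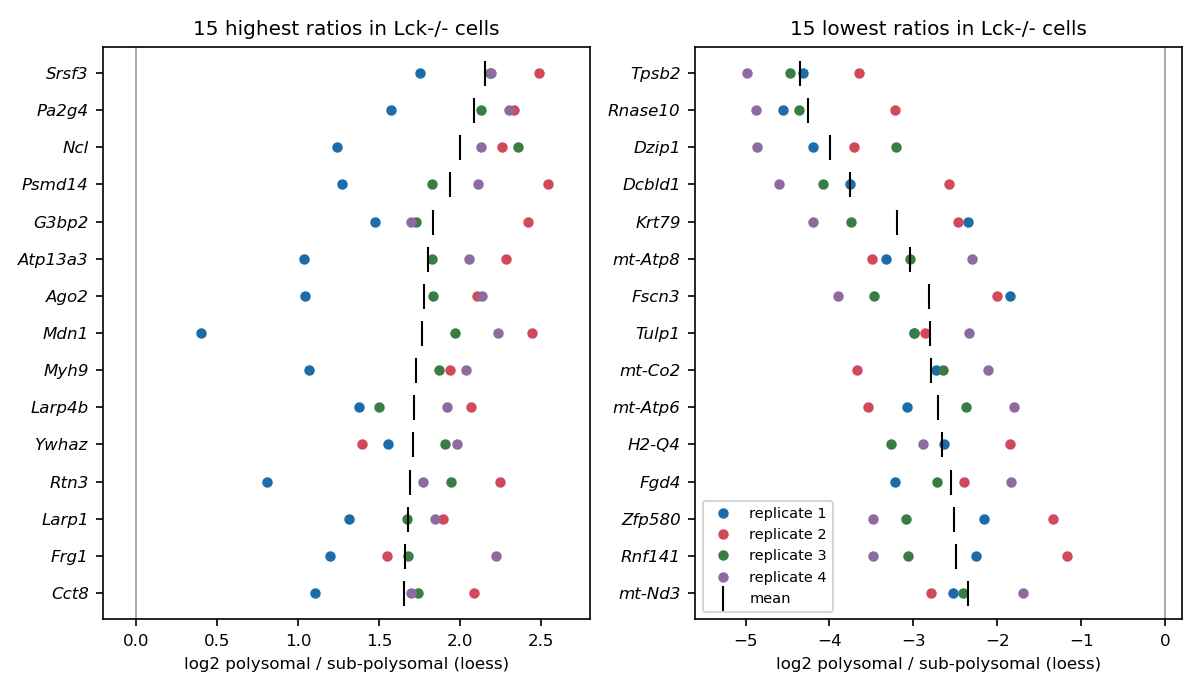
Log2 polysomal over sub-polysomal ratio (x axis, loess) of the 15 highest and 15 lowest protein-coding genes, with a point for each Lck-/- extract, coloured by replicate, and a bar for the mean. Replicate 1 lies lowest for 14 of the 15 highest genes, and no point of any of the 30 genes crosses 0.

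At the other end, the 15 lowest protein-coding genes held 4 mitochondrially encoded mRNAs and 11 nuclear genes, several of them known from other tissues. The lowest were Tpsb2, a mast cell tryptase, and Rnase10, a ribonuclease-like protein of the epididymis. The others were Dzip1, a cilium protein, Dcbld1, Krt79, a keratin, Fscn3, a testis fascin, Tulp1, a photoreceptor protein, H2-Q4, a class I MHC gene, Fgd4, Zfp580, a zinc finger protein, and Rnf141. The probes of 7 of these 11 shared a stretch of letters, and none of the 15 highest did. The sequences are shown so that the shared letters can be seen. Each line gives 30 bases of the 60-base probe, 5′ to 3′ as the scanner files list it, and capitals mark GCTGTGCTG, its last 8 letters or its first 7.

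Tpsb2: ggGCTGTGCTGtctttaactcactgcttcc
Rnase10: aatgcagtgtGCTGTGCTGactattaaact
Dcbld1: taactgtgatGCTGTGCTGtaaaatgtgca
Zfp580: cttcagtccgGCTGTGCTGtgtaagccttt
Dzip1: agtctgtCTGTGCTGtctgacagcaggtgt
Fscn3: gaggctgtgtGCTGTGCgatttttcctacc
Rnf141: aaattgtatgttagtGCTGTGCtcactcag
Gm4470: tgtGCTGTGCTGtcctttcaaatttcacac
Gm2921: cgttgggggtGCTGTGCTGgtttgtataag

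The full probes lie, in mm9, at chr17:25504819-25504878 for Tpsb2, chr14:51630373-51630432 for Rnase10, chr10:52039998-52040057 for Dcbld1 and chr7:5005119-5005178 for Zfp580, all on the plus strand. Those of Gm4470 (chr19:56156181-56156239) and Gm2921 (chr8:60281380-60281439), both long non-coding RNAs, also lie on the plus strand, as does that of Fscn3 (chr6:28388511-28388570). The probes of Dzip1 (chr14:119279991-119280050) and Rnf141 (chr7:117957436-117957495) lie on the minus strand. None of the probes of these 9 genes aligned over at least 25 bases at 80% identity to probes of 4 or more other genes.

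Tpsb2 had ratios of -4.31, -3.65, -4.48 and -4.98, a mean of -4.35 (SE 0.19, limma adjusted p = 5.44e-06). Rnase10 had -4.56, -3.21, -4.36 and -4.87, and Dcbld1 -3.76, -2.58, -4.07 and -4.60. Gm4470 had -5.08, -3.92, -4.78 and -5.08. Replicate 2 was the least negative extract and replicate 4 was lowest or, for Gm4470, level with replicate 1. The ratios of Rnf141 (-2.25, -1.17, -3.06 and -3.49) and Zfp580 (-2.16, -1.33, -3.09 and -3.48) were also least negative in replicate 2 and lowest in replicate 4. The order of replicates 1 and 3 differed among these genes. Dzip1 (-4.19, -3.70, -3.21 and -4.86) and Fscn3 (-1.86, -2.01, -3.47 and -3.90) did not share both traits. Both were lowest in replicate 4, but Dzip1 was least negative in replicate 3 and Fscn3 in replicate 1. In the polysomal pool the log2 intensity was 7.90 for Tpsb2, 7.91 for Rnase10, 7.32 for Dcbld1 and 9.46 for Gm4470. In the sub-polysomal pool it was 12.25, 12.16, 11.07 and 14.17. For Tpsb2, Rnase10 and Dcbld1 the polysomal signal was thus dim, which limits how exactly their ratios can be read.

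Over the whole array, GCTGTGCTG occurs in 28 of 55681 probes (0.0503%), and 14 of them passed the filter. Their median ratio was -2.76, from -4.71 to 0.34, and 11 of 14 lay at or below -1, against 739 of all 14144 probes that passed (5.22%). The last 8 letters, CTGTGCTG, gave a median of -0.50 in 54 probes, with 37.0% at or below -1, and the first 7, GCTGTGC, gave -0.26 in 85 probes with 25.9%. These 3 sets overlap, since the longer stretch holds both shorter ones. The same letters on the other strand were near the level of all probes: CAGCACAGC gave a median of -0.23 in 5 probes and CAGCACAG 0.06 in 27, with none at or below -1, and GCACAGC gave -0.14 in 47, with 6.38% at or below -1. Zfp217 had a bright probe at 0.55 and a second at -2.68, and the second holds GCTGTGC. The lowest probe of Ago2, at -3.07, holds neither the stretch nor its shorter forms. The stretch was found by looking at the lowest probes, so these shares describe it and test nothing. Whether the signal of such a probe came from the gene it is named for was not tested.

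A purine repeat marked a second set. AAGAAGAA occurs in 381 probes (0.684%), of which 149 passed, and 58 of these (38.9%) lay at or below -1. The same letters on the other strand, TTCTTCTT, gave 1 of 31 (3.23%). Of the 149, 45 lay between -2.13 and -1.77 (median -1.93), and the next value above them was -1.59. Of these 45, 37 had no gene name and 43 aligned to probes of 4 or more other genes. Ermn, an oligodendrocyte gene, and Gab3, an adaptor protein, are examples, with the repeat in capitals:

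Ermn: tgtgacgaggAAGAAGAAGAAGAAGAAGAA
Gab3: actccttctgAAGAAGAAGAAGAAGAAGAA

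Ermn (mm9, chr2:57900470-57900529, minus strand) had ratios of -2.29, -1.85, -2.58 and -1.47, and Gab3 (chrX:72245336-72245395, minus strand) had -2.44, -1.87, -2.41 and -1.33. Both were least negative in replicate 4, the extract in which Tpsb2 was lowest. Pigr, Gcm1 and Rhox8, whose probes hold the same repeat, had means of -2.13, -1.95 and -1.93. The scanner annotation places the Pigr probe at chr13:108165151-108165210 and the Gcm1 probe at chr7:123731567-123731626. Whether the signal of these repeat probes came from the genes they are named for was not tested.

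**Figure D2:**
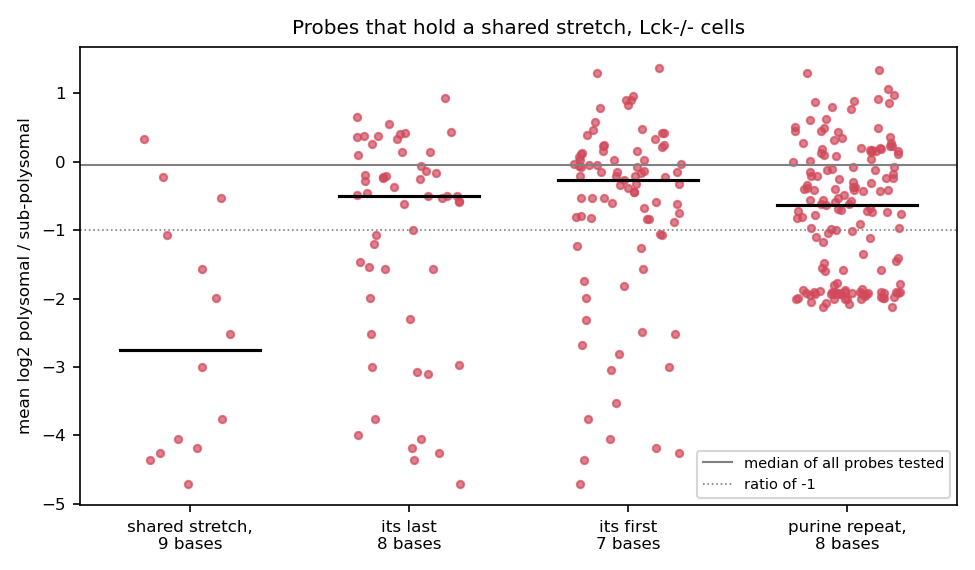
Mean log2 polysomal over sub-polysomal ratio in Lck-/- cells (y axis, loess), with a point for each probe that passed the filter and holds the 9-letter stretch, its last 8 or first 7 letters, or the purine repeat. Black bars are medians (-2.76, -0.50, -0.26 and -0.63), the grey line is the median of all 14144 probes (-0.04), the dotted line marks -1, and the purine repeat shows a dense band between -2.13 and -1.77.

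RNAs that do not encode a protein are described next. They were chosen after their values were seen, so they are no check of the fractions. All 6 small structural RNAs that passed were below 0, at a median of -4.13, against -0.00 for 8460 nuclear protein-coding genes. Rnu1b6, a U1 snRNA of the spliceosome, had -4.35, -4.46, -6.05 and -5.27 (mean -5.03, SE 0.25, limma adjusted p = 1.26e-05), the lowest value of all genes. Rmrp, the RNA of RNase MRP, had -4.24, -4.31, -5.08 and -4.81, and Rnu3b1, a U3 RNA of rRNA processing, had -3.94, -3.94, -5.09 and -4.56. Replicate 3 was the lowest extract for these 3 RNAs. Rnu2-10 (-3.88) and Rnu12 (-1.34), both snRNAs of the spliceosome, and the snoRNA Snora74a (-3.60) completed the set.

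Of 126 long non-coding RNAs, 83 were below 0 and 5 above, at a median of -0.49. Mir17hg, the host of the miR-17 cluster, held nearly the same value in every extract: -2.40, -2.35, -2.47 and -2.35. Dancr, a snoRNA host, had -2.65, -2.74, -2.33 and -2.18. Other snoRNA hosts were low but spread widely. Snhg6 ran from -3.67 in replicate 2 to -1.10 in replicate 1, Snhg12 from -3.05 to -0.83, and Gas5, a TOP RNA, had a mean of -1.95. Neat1, the scaffold of nuclear paraspeckles, had a mean of -1.63. Kcnq1ot1 (0.83) and Airn (1.66), both long antisense RNAs of imprinted loci, lay above 0.

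Gene lists are given by their counts above and below 0, to be read against the 23.3% and 25.1% of all genes, and by their median. Counts that moved by over 1.5 times when 1 extract was left out carry that count in brackets. Members are given from their brightest probe, and other probes could differ. Over 2028 genes with several passing probes the median range between probes was 0.26, and it exceeded 1 in 129 (6.36%). Beside the values below, other probes gave 0.02 for Srp54a, -0.28 for Nfkb1, -0.24 for Eif4a2 and -0.22 for Sf3b4. Those of Nop56 gave -1.01 and 0.15, and those of Hspa8 gave 0.40 and 1.47. Without normalization, which keeps the overall level of the ratio, several list medians that lie below 0 here turned positive, at 0.24 for other TOP mRNAs, 0.37 for mitochondrial ribosomal proteins, 0.06 for histones, 0.46 for mitosis, 0.25 for effector molecules, 0.37 for receptors, 0.33 for immediate early genes, 0.49 for stress mRNAs, 0.07 for iron-responsive mRNAs and 0.11 for selenoproteins. The mRNAs made inside mitochondria had the lowest median of the 30 lists. Of 13, 12 were below 0 and none above (1 without replicate 1), at a median of -1.74. mt-Atp8 and mt-Atp6 encode subunits of the ATP synthase. mt-Atp8 had -3.33, -3.50, -3.04 and -2.30 (mean -3.04, SE 0.18, limma adjusted p = 3.49e-05), and mt-Atp6 had -3.08, -3.54, -2.38 and -1.80. mt-Co2, of cytochrome oxidase, had -2.73, -3.67, -2.65 and -2.12. Replicate 2 was the lowest and replicate 4 the highest extract for all 3, the opposite order to Tpsb2.

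Of the complex I subunits, mt-Nd3 had a mean of -2.35, mt-Nd2 -2.35, mt-Nd1 -1.88, mt-Nd4l -1.74, mt-Nd5 -1.43 and mt-Nd4 -1.20. The scanner annotation places the mt-Nd3 probe on chromosome 1 (24619613 to 24619672, mm9), and whether it reads only the mitochondrial copy was not tested. mt-Co3 (-1.67), mt-Cytb (-1.51) and mt-Co1 (-0.97) were less extreme. mt-Nd4 had the widest range, from -2.23 in replicate 2 to 0.35 in replicate 4. mt-Nd6 stood apart with -0.15, 0.45, 0.41 and 0.97 (mean 0.42, limma adjusted p = 0.0637). It is the subunit encoded on the other mitochondrial strand.

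The nuclear mRNAs for the same complexes were spread around 0. Of 77, 25 were above 0 (16 without replicate 3) and 7 below (4 without replicate 2), at a median of 0.05. The balance depended on the scaling: median centring gave 15 above and 17 below, at a median of -0.15, and the authors' ratios centred gave 15 above and 22 below, at -0.19. Ndufc2, of complex I, had 0.93, 1.68, 1.42 and 1.56, and Cox5a, of cytochrome oxidase, had a mean of 0.73. Uqcr10, of complex III, had 0.01, -2.05, -1.29 and -1.36, so its replicate 1 did not share the low value. Of 75 mRNAs for mitochondrial ribosomal proteins, 23 were below 0 and 5 above, at a median of -0.11. The count above was 2 without replicate 3 or 4, 3 without replicate 1 and 8 without replicate 2. Mrps36 had the lowest mean (-1.06) and Mrpl15 the highest (0.81).

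**Figure D3:**
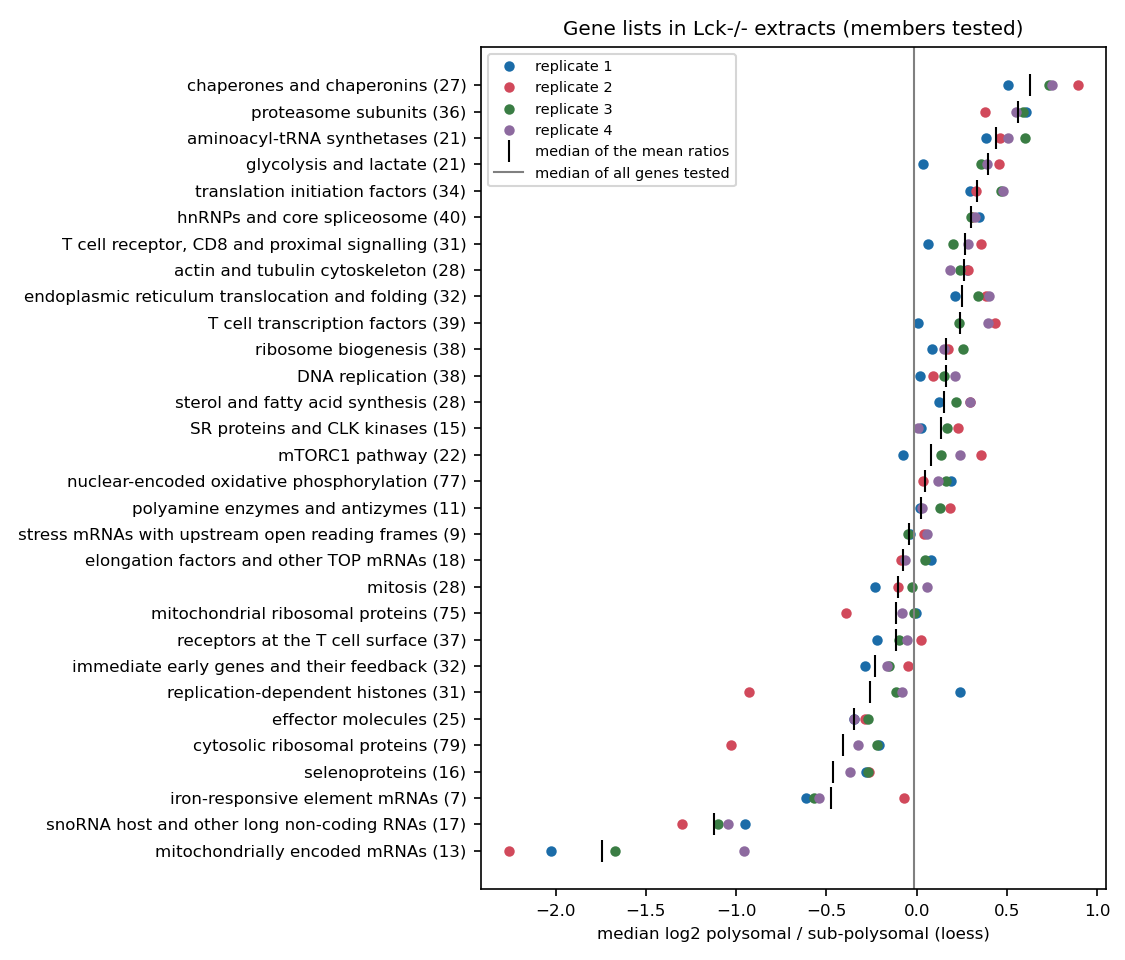
Median log2 polysomal over sub-polysomal ratio of the tested members (x axis, loess) of each of 30 gene lists, with the number tested in brackets. Coloured points are the 4 Lck-/- extracts, black marks the median of the mean ratios and the grey line the median of all genes. The mitochondrially encoded mRNAs lie lowest (-1.74) and, with this scaling, the chaperones highest (0.63), and replicate 2 stands apart for ribosomal proteins (-1.03).

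Ribosomal protein mRNAs leaned to the sub-polysomal pool. Of 79, 38 were below 0 and 2 above, at a median of -0.41. Rps12 had -1.40, -2.58, -1.15 and -0.97 (mean -1.52, limma adjusted p = 0.00132). Rps24 had -1.33, -1.79, -1.08 and -1.11, and Rpl17 had -1.07, -2.09, -0.92 and -0.85. Replicate 2 was the lowest extract for all 3. Over the list the median was -1.03 in replicate 2 and -0.21, -0.22 and -0.33 in replicates 1, 3 and 4. Without replicate 2, 28 were below and 9 above, and without replicate 3 or 4 only 1 was above. Rpl19 (0.66) and Rpl10 (0.34) were the 2 above 0, and Rpl10 moved to -0.11 with median centring. The size of this shift depended on the scaling, and loess sets these bright mRNAs (median log2 intensity 16.53) against spots of similar brightness. Median centring gave 59 below and none above, at a median of -0.79. Agilent's processed signals gave 19 below and 13 above, at a median of -0.05.

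Of 18 other mRNAs of the TOP class 6 were above 0 and 5 below, shares near those of all genes, at a median of -0.08. Agilent's processed signals gave 9 above and 5 below, at a median of 0.28, and median centring gave 5 above and 9 below, at -0.29. Tpt1, a growth-related TOP mRNA, had -1.19, -1.10, -0.95 and -0.79, and Eif4a2 (-1.07), a helicase paralogue of initiation, and Eif3f (-1.03) were also below. Eif3a (0.88), the largest subunit of eIF3, Eef1d (0.87), of the elongation factor 1 complex, and Nap1l1 (0.73), a histone chaperone, were above.

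The 5′ ends of some of these mRNAs are printed because the TOP motif is read there. Each line gives 10 bases before and 20 bases from the annotated start in RefSeq (GRCm38.p6), with the pyrimidine run from a C at the start in capitals. The starts shown lie at chr4:86857348-86857377 (minus strand) for Rps6, and on the plus strand at chr2:180257369-180257398 for Rps21, chr11:48800350-48800379 for Rack1 and chr10:111473217-111473246 for Nap1l1.

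Rps6: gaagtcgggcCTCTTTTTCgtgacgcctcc
Rps21: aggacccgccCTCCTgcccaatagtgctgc
Rack1: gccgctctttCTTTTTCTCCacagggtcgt
Nap1l1: gctctcgggtCTTTTTTagcgccatctgct

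A start was counted as pyrimidine-rich when a C was followed by at least 4 further pyrimidines. This held for 823 of 32851 starts in the table (2.51%), for 196 of 6915 tested genes with a start (2.83%) and for 14 of 58 ribosomal protein genes (24.1%). Most ribosomal protein genes thus lacked a start of this kind in the table. The call rests on the annotated first base. The starts printed above all hold such a run, whereas Rps12 and Eef1a1 were not counted, though a pyrimidine run lies close to their annotated starts. The comparisons that follow therefore describe annotated starts and cannot speak for the TOP motif. Rps21 had a mean of -0.73, Rps6 -0.56, Rack1 -0.14 (0.40 with Agilent's processed signals) and Nap1l1 0.73, so starts of this kind occurred from low to high ratios. Ribosomal protein genes with such a start had a median of -0.33 (7 of 14 below, none above) and those with another start -0.31 (16 of 44 below, 2 above). The 182 other genes with such a start lay 0.02 ± 0.03 (SD, n = 4) from the median of all genes.

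Of 36 proteasome subunits, the parts of the protease that degrades ubiquitin-tagged proteins, 26 were above 0 and none below (1 without replicate 1), at a median of 0.56. Psmb5, a catalytic subunit, had 1.49, 1.48, 1.35 and 1.25, and Psma6, of the outer ring, had 1.25, 1.34, 1.48 and 1.36. Both were even across extracts. Psma4 ran from 0.68 in replicate 1 to 1.81 in replicate 4. Psmc6 (-0.29) had the lowest mean and did not pass the test.

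Chaperones, which fold proteins, had 23 of 27 above 0 and none below. Their median, 0.63, was the highest of the lists after loess, but with median centring (0.42) and with the authors' ratios centred (0.38) it lay below that of the aminoacyl-tRNA synthetases (0.46 and 0.49), and without replicate 2 (0.54) below that of the proteasome (0.59). Subunits of the chaperonin TRiC led: Cct8 had 1.10, 2.08, 1.74 and 1.70, Cct7 had 1.36, 1.77, 1.68 and 1.55, and Cct4 had a mean of 1.48. Cdc37 (1.44), the kinase adaptor of Hsp90, followed. Hspa8, the constitutive Hsp70, had a mean of 0.19 and did not pass.

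Aminoacyl-tRNA synthetases, which load tRNAs, had 16 of 21 above 0 and none below, at a median of 0.44. Hars had 1.34, 1.51, 1.33 and 1.66, Dars had a mean of 1.42 and Rars of 1.25. Without replicate 3, 9 of the 21 were above 0. Of 34 initiation factors 20 were above (12 without replicate 3) and 2 below (0 without replicate 2 or 3, 1 without replicate 4), at a median of 0.34. Eif4g1, the scaffold of the cap complex, had 1.08, 1.54, 1.01 and 1.34, whereas Eif4ebp1, its mTOR-controlled competitor for eIF4E, had -0.27, -0.70, -0.28 and -0.41 (limma adjusted p = 0.0175). That call was lost without replicate 2, 3 or 4 (adjusted p = 0.052, 0.0554 and 0.0645).

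Ribosome assembly factors had 13 of 38 above and 2 below, and Ncl and Rrp12 (1.21) were the highest and Nop56 (-1.04) the lowest. Of 40 hnRNP and spliceosome mRNAs 20 were above and 5 below (2 without replicate 3 or 4), at a median of 0.30. Snrpb (1.36) and Hnrnpa3 (1.20) led, and Sf3b4 (-1.20) was lowest. Of 15 SR proteins and CLK kinases, which phosphorylate them, 5 were above and 3 below (1 without replicate 2), at a median of 0.13, so 7 passed neither way. The highest after Srsf3 were Srsf2 (0.52) and Srsf1 (0.51), and the lowest were Clk4 (-1.10) and Clk1 (-0.52).

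**Figure D4:**
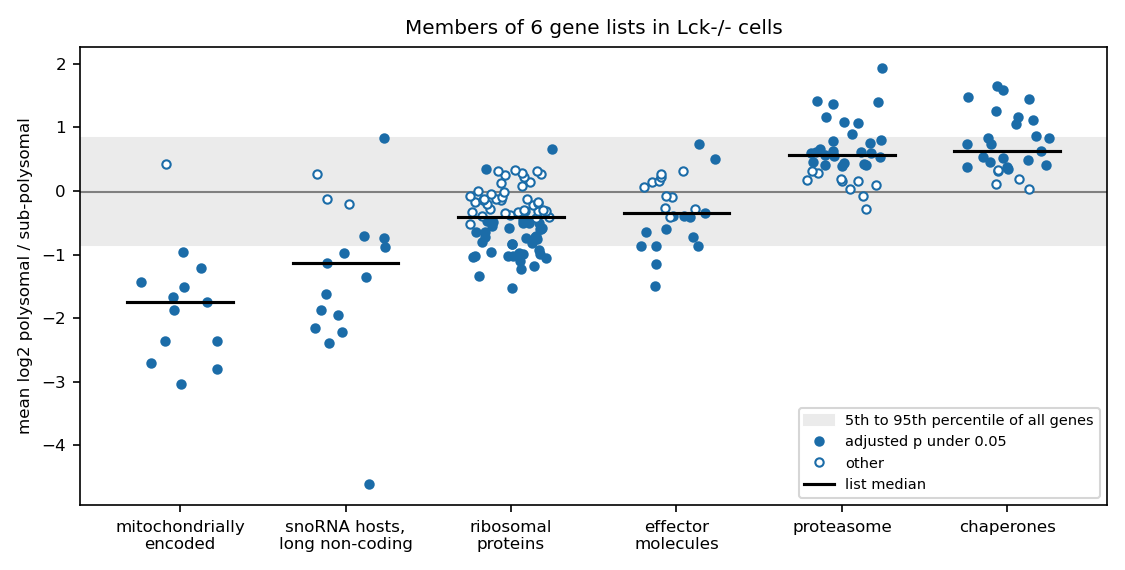
Mean log2 polysomal over sub-polysomal ratio over the 4 Lck-/- extracts (y axis) of every tested member of 6 gene lists, filled where the adjusted p was under 0.05. Black bars are list medians and the grey band holds 9 genes in 10 of all those tested. None of the 36 proteasome or 27 chaperone members has a filled point below 0, and 12 of the 13 mitochondrially encoded mRNAs have one.

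Glycolytic enzymes were above the typical mRNA in 11 of 21 cases (7 without replicate 3) and below in 1, at a median of 0.39. Ldha, which makes lactate, had 1.12, 1.76, 1.29 and 1.39, Hk2 (0.91) and Pkm (0.86) followed. The 1 gene below was Hk1 (-1.43), whose brightest probe aligned to probes of 4 or more other genes; its other probe gave 0.68. Of 32 mRNAs for translocation and folding in the endoplasmic reticulum 15 were above and 2 below. Srp54a (1.52), of the signal recognition particle, and Canx (1.32), calnexin, led, and Srp19 (-0.76) and Sec61g (-0.74), a pore subunit, were below.

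Genes of T cell function were taken as 5 lists. Of 31 mRNAs for the T cell receptor and its proximal signalling 13 were above 0 and 2 below (1 without replicate 1, 2 or 3), at a median of 0.27. Cbl, a ubiquitin ligase, had 0.25, 1.68, 1.65 and 1.47, with replicate 1 far below the rest. Cd247, the zeta chain, had 0.51, 0.51, 1.25 and 1.39. Vav1 (0.81) and Zap70 (0.57), the kinase that Lck activates, were also above, and Txk (-0.47) and Themis (-0.45) below. Without replicate 3, 5 were above, and without replicate 4, 7.

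Effector mRNAs were more often below the typical mRNA than above it. Of 25, 12 were below and 2 above (4 without replicate 1), at a median of -0.35. The chemokine Ccl5 had -1.27, -1.66, -1.58 and -1.45, and the cytokine Csf2 had -0.84, -1.73, -0.92 and -1.10. Tnf (-0.87), Ccl9 (-0.87) and Lta (-0.87) were also below. Xcl1 (0.73) and Ltb (0.51) were the 2 above, and Xcl1 ran from 0.21 in replicate 1 to 1.22 in replicate 4. In 37 receptors 12 were below and 7 above (4 without replicate 2). Ifngr2 (-1.21), of the interferon gamma receptor, and Cd69 (-0.83), an early activation marker, were low, and Lag3 (0.90), an inhibitory receptor, was highest.

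Transcription factors of T cells spread from one end to the other, with 17 of 39 above and 7 below. Id2, an inhibitor of E proteins, had -1.70, -1.83, -1.75 and -1.79 (mean -1.77, limma adjusted p = 2.52e-05). Klf2, a quiescence factor, had -0.61, -1.55, -1.57 and -1.64. Ets1 had 1.09, 2.09, 1.45 and 1.61, Nfkb1 1.11, 1.47, 1.93 and 1.32, and Bcl11b a mean of 1.17. Immediate early genes and their feedback had 11 of 32 below (7 without replicate 3 or 4) and 4 above (1 without replicate 2, 2 without replicate 3 or 4), from Nfkbid (-1.39) and Zfp36l1 (-1.01), an mRNA decay factor, to Gadd45b (0.57).

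mRNAs with known control elements were taken as 3 lists. The ferritin subunits, whose 5′ iron-responsive element blocks initiation when iron is low, were Fth1 with -1.88, -2.35, -1.26 and -1.34 and Ftl1 with -1.22, -1.56, -1.40 and -1.44. Of the 7 tested iron-responsive mRNAs 4 were below (the other two being Tfrc and Slc11a2) and none above. Selenoproteins, which recode a stop codon, had 9 of 16 below and 3 above (0 without replicate 2, 3 or 4), at a median of -0.46. Selenow had -0.11, -2.01, -1.82 and -1.99, with replicate 1 apart. Of 9 stress mRNAs with upstream open reading frames 2 were below (Atf5 and Ppp1r15a) and 1 above (Ppp1r15b). Without replicate 3 or 4, 1 was below and none above, without replicate 2 none was above, and without replicate 1, 2 were above.

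Replication-dependent histones, whose mRNAs end in a stem-loop and lack a poly(A) tail, had 13 of 31 below and none above. Their list median was 0.24, -0.93, -0.11 and -0.08 in the 4 extracts, and without replicate 2 only 4 were below, and without replicate 3 only 6. Mitosis genes had 7 of 28 below (3 without replicate 2, 3 or 4) and 1 above (6 without replicate 1, 0 without replicate 3 or 4), led by Ccnb1 (-0.81), though a second, dimmer probe of Ccnb1 gave 0.83. DNA replication genes had 12 of 38 above and 6 below (3 without replicate 3, 10 without replicate 1), from Fen1 (0.93) to Prim1 (-0.80). Of 28 actin and tubulin mRNAs 12 were above and 5 below, at a median of 0.26, and median centring gave 7 and 6. Tuba1c (0.82) and Tubb5 (0.71) were among the highest. The thymosins Tmsb4x and Tmsb10, which bind actin monomers, were among the lowest, Tmsb4x with -0.24, -2.73, -1.40 and -1.45 and Tmsb10 with a mean of -1.11. In the mTORC1 list 8 of 22 were above and 6 below (3 without replicate 3 or 4), with Rps6ka1 (1.04) and Rptor (0.71) above and the Ragulator subunits Lamtor1 (-1.08) and Lamtor5 (-1.04) below. Sterol and fatty acid enzymes had 12 of 28 above and 3 below (1 without replicate 3 or 4), led by Acaca (1.07). Of 11 polyamine mRNAs 2 were above (Azin1 and Dohh) and 2 below (Sat1 and Dhps), with 1 below without replicate 2, 3 or 4.

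Between genotypes the ratio was compared for 8265 genes tested in both. The labels of 2 WT arrays are in doubt. Deviations from the mean of the WT arrays of the same dye, correlated over these genes, gave -0.83 and -0.81 between the 2 arrays labelled as WT replicate 1 and as WT replicate 2, but 0.87 and 0.94 between the Cy5 array of each and the Cy3 array of the other. Those of WT replicates 3 and 4 gave 0.67 and 0.85. The labels were followed, and values with these Cy3 arrays exchanged are given beside them. An exchange leaves the WT mean as it is and changes the spread between WT extracts. With the labels followed, the ratio was higher in Lck-/- than in WT cells for 231 (2.79%) and lower for 85 (1.03%) by limma at an adjusted p of 0.05. With the exchange, 41 were higher and none lower (386 lower at an unadjusted p under 0.05). Of the ribosomal protein mRNAs 50 of 79 were higher in Lck-/- cells and none lower, with medians of -0.41 in Lck-/- and -1.38 in WT cells. The exchange left 1 higher and median centring 15. With 1 extract left out the count ran from 15 (without Lck-/- replicate 3) to 67 (without Lck-/- replicate 2), and was 18 without Lck-/- replicate 4 and 20 without WT replicate 1. Of the mitochondrially encoded mRNAs 9 of 13 were higher, 2 with the exchange. That count was 2 without Lck-/- replicate 3, 4 without Lck-/- replicate 4 or WT replicate 1, and 5 without WT replicate 3 or 4. mt-Nd3 was -2.35 in Lck-/- and -4.71 in WT cells (difference 2.36, SE 0.27, limma adjusted p = 0.00158, or 0.0083 with the exchange). Proteasome subunits had medians of 0.56 in Lck-/- and 0.68 in WT cells, with none higher and 1 lower (15 lower with median centring). Chaperones had 0.63 and 0.83, with none higher or lower (11 lower with median centring). The long non-coding list had -1.12 and -2.56, with 6 of 15 higher (0 with the exchange). Small structural RNAs had -4.13 and -5.06. Without normalization 40 genes were higher and 5934 lower, and the ribosomal proteins gave none higher and 8 lower. The median difference was then -0.78 over all genes and -0.16 over the ribosomal proteins. With 1 extract left out the count of higher genes ran from 88 (without Lck-/- replicate 3) to 286, and that of lower genes from 5 (without WT replicate 1) to 154.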

How the data were processed

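RNA of 2 pools, polysomal and sub-polysomal, was measured on 16 Agilent 2-colour arrays, of which the 8 Lck-/- arrays (4 extracts, each with a dye swap) carry the results and the 8 WT arrays the comparison. Per the file headers, the deposited spot and background values are intensity from Agilent's Feature Extraction software, version 10.7.3.1, with mm9 annotation. The deposited processed signals are intensity after background and dye correction by that software. The deposited flags are of unit other (0 or 1 per spot). The authors' table holds log2 ratios per extract, with dye swaps taken into account and the centring not stated. The submitters' processing notes name limma without a version.

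Intensities were corrected with normexp (offset 50) and loess within each array in limma 3.58.1 (R 4.3.3), with control and outlier spots at weight 0. Ratios were turned to polysomal over sub-polysomal by the dyes in the labels, and the 2 arrays of an extract were averaged. Each gene was read from its brightest probe among those that cleared the background of both channels on 6 or more of 8 arrays. RefSeq tables named 31398 of 55681 probes, and the 24283 without a gene were left out of gene tests. Means of 4 extracts were tested against 0, and the genotype difference over 8 extracts, with lmFit, eBayes and Benjamini-Hochberg adjustment. The code was tested on simulated data. No spot was saturated. The number of arrays limits the precision.

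Named were Lck, the 15 highest and 15 lowest protein-coding genes with an adjusted p under 0.05 and all 8 arrays on the same side of 0 (without Gm, Rik, LOC and clone names, pseudogenes, receptor segments and recurring probes), the 3 highest and 3 lowest members of each of 30 lists, and detected markers. The members and lists were chosen with earlier results of these data known. Outside that rule, and chosen after their values were seen, are the non-coding and small RNAs, the repeat genes, the second probes, the genes printed for their start, and Psma6, Cdc37, Tnf, Lta, Tfrc, Srsf1, Zap70, Rptor and the other mitochondrially encoded genes. The alternatives tried are named with their effect at the end. Replicate numbers of Lck-/- and WT did not pair the samples: deviations of same-numbered extracts correlated at 0.06, -0.17, 0.26 and -0.24. A planned description by protein length was not run, since no protein table was used here.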

Additional observations from a re-analysis of the deposited data

Results flagged for a closer look

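Extracts far from the other 3 of their group were found for 4 values, a gap that chance gives in about 1 in 20 groups. The search covered the overall ratio, the medians of the 30 lists, the 15 highest and 15 lowest genes and Lck, so a few such gaps would arise by chance alone. The median of the ribosomal protein list was -1.03 in replicate 2, that of the iron-responsive list was -0.071 in replicate 2, Myh9 was 1.07 in replicate 1, and the ratio of Lck was 0.55 in replicate 2.

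The ratio differed between Lck-/- and WT cells by a limma test of the difference for 4 of the lowest genes, which were less sub-polysomal in Lck-/- cells: by 1.63 for mt-Atp8, 1.62 for mt-Co2, 1.80 for mt-Atp6 and 2.36 for mt-Nd3. With the Cy3 arrays of WT replicates 1 and 2 exchanged, since their labels are in doubt, mt-Nd3 passed (adjusted p = 0.0083) and the other three did not (0.0953 for mt-Atp8, 0.129 for mt-Co2 and 0.162 for mt-Atp6).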

How the results depend on the processing

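Genes above 0 (2049) numbered 5098 without normalization, 1296 on Cy5 arrays only, 1246 on slide 1 only and 6180 with the authors' ratios as given; those below (2208) numbered 363, 1336 on Cy5 arrays and 423 with the authors' ratios. Genes 2-fold above (228) numbered 419 with Agilent's processed signals, 1517 without normalization and 1959 with the authors' ratios, and those 2-fold below (283) numbered 102 and 100 in the last 2 settings. Both settings keep the overall level of the ratio, which loess removes. With 1 extract left out the counts ran from 1297 to 2750 above, 1431 to 2220 below, 175 to 396 at 2-fold above and 245 to 328 at 2-fold below. Of the 4257 called genes, 4020 were called the same way without replicate 1, 3127 without replicate 2, 2716 without replicate 3 and 2987 without replicate 4, and none the other way in these 4 settings.

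List medians are given here minus that of all genes. With the authors' ratios, as given or centred, ribosomal proteins moved from -0.44 to -0.89, proteasome subunits from 0.54 to 0.35 and chaperones from 0.72 to 0.48. Chaperones moved to 0.43 with median centring and without normalization, and to 0.63 on Cy5 arrays and on slide 2. snoRNA hosts and other long non-coding RNAs moved from -1.09 to -0.45 without a filter on dim probes. Leaving out 1 extract gave -0.57 to -0.23 for ribosomal proteins, -1.96 to -1.53 for mitochondrially encoded mRNAs, 0.47 to 0.60 for proteasome subunits, 0.68 to 0.75 for chaperones, -0.34 to -0.28 for effector molecules, -1.19 to -1.01 for the long non-coding list, and 0.45 to 0.63 for the overall ratio. That ratio was 1.67 on Cy5 arrays and -0.58 on Cy3 arrays.

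Signs of these and of single genes turned as follows. With the mean of all passing probes, Ccnb1 gave 0.0095, Dohh -0.045, Zfp217 -1.06, and the polyamine and SR lists -0.022 and -0.053 (the SR list -0.012 on Cy5 arrays). List medians taken as such, not against all genes, also turned under other scalings: with median centring and the authors' ratios centred, nuclear oxidative phosphorylation gave -0.15 and -0.19 and the polyamine list -0.077 and -0.072, and with Agilent's processed signals the TOP list gave 0.28 and the stress list 0.0062. Without normalization more turned, as given above. Without normalization and with the authors' ratios as given, Clk1 gave 0.078 and 0.16, Ppp1r15a 0.22 and 0.29, Psmc6 0.28 and 0.37, Themis 0.18 and 0.22, and Txk 0.13 and 0.15. With median centring and the authors' ratios centred, Hspa8 gave -0.22 and -0.27 and Rpl10 -0.11 and -0.15. Rack1 gave 0.40 with Agilent's processed signals and 0.20 on Cy5 arrays, and Hk1 gave 0.68 without probes of shared sequence, a setting chosen after seeing the data, as was leaving out the letter stretches. The cause was not tested.

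For the genotype difference, 353 genes were higher and 726 lower in Lck-/- cells with median centring, 40 and 5934 without normalization, and 41 and 0 with the exchanged WT dye swaps, whose arrays correlate across their labels. With the replicate number as a block, 5 were lower, and whether the numbers pair the samples is not known. With 1 extract left out, 88 to 286 were higher and 5 to 154 lower.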
